A study of Dugesia japonica with 4 samples.

Results

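Transcripts for the use of sugar and fat were followed in the heads of the planarian Dugesia japonica, a freshwater flatworm that regrows a lost head. The set held 61 of the 15850 assembled transcript features in the deposited tables. A feature was taken when its deposited protein name contained 1 of 17 words for enzymes of glycolysis, glycogen, the pentose phosphate and glyoxylate steps, fatty acids, lipid transfer or phospholipids, so no expression value took part in the choice. Hexokinase, phosphofructokinase and transketolase were among those words and matched no name. The 61 features carry 34 names and lie on 45 contigs, so that some are pieces of the same transcript. The wording also took some that are not metabolic enzymes. They include glycogen synthase kinase 3, a signalling kinase, and 3 phospholipase A2-activating proteins. The fatty acid-binding protein and the lipid transfer proteins are carriers.

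The study compared poly(A) RNA of amputated heads of control worms, which the labels call wild type, and of worms kept in BaCl2, with 2 libraries per group and 25 worms pooled in each library. The treated worms had lived for 35 days in 1 mM BaCl2, whose barium ion blocks potassium channels, and had by then grown heads insensitive to it. The labels give neither an exposure nor a regrown head for the control worms, so barium and head regrowth cannot be told apart. The design text also names worms starved for 35 days, which were not analysed here, and no label says whether the worms of either group were fed, so feeding and treatment cannot be told apart either.

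Glycolysis splits glucose into pyruvate through a chain of enzymes that begins with a hexokinase and includes aldolase, glyceraldehyde-3-phosphate dehydrogenase, enolase and pyruvate kinase. Glycogen is the storage form of glucose, made by glycogen synthase and opened by debranching enzyme. Fatty acids are activated to their coenzyme A esters before they are oxidised, lengthened by elongases or built into membranes, and phospholipases cut them out of membrane lipids again. Planarians live through long fasts by shrinking and consuming their own tissue, with the intestine as the main fat store.

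Levels are FPKM, which corrects fragment numbers for the length of a feature and the depth of its library, with the 4 libraries brought to the scale of the deposited pooled table. Depth was 5901128 and 8304636 fragments in the controls, and 3395482 and 6875654 under BaCl2. A difference is called here when limma, fitted to log2(FPKM + 1) over all features with at least 100 fragments in the 4 libraries together, gave a Benjamini-Hochberg adjusted p under 0.05. This fit covered 7982 features and 38 of the 61. In RNA from whole heads, fewer cells of a type and less RNA per cell cannot be told apart.

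Only 1 of these 38 metabolic features was called, and it was lower in BaCl2 heads. Its protein name is that of a hexokinase-type phosphotransferase, which its deposited gene name does not match. The call rate over all features was 1.42% (1.22% lower and 0.200% higher). An unadjusted p under 0.05 was reached by 6 of the 38, and by 18.9% of all features. The groups did not overlap in 20 of the 38. BaCl2 heads were the lower group in 16 of them, where 36.3% of all features showed that order, and the higher group in 4, where 19.0% did. The median log2 fold was -0.27 for the metabolic features and -0.15 for all features, and 25 of the 38 lay below 0 (65.8%, against 60.9% of all features). With the libraries scaled to equal fragment totals instead, the medians were -0.07 and 0.06, and 24 of 38 lay below 0 (63.2%, against 45.8%). On that scale BaCl2 heads were the lower group without overlap in 12 of the 38 (24.7% of all features) and the higher group in 9 (29.1%). Summed over the 61 features, CPM (fragments relative to the library total) were 4775 and 4642 in the control libraries and 4366 and 4977 in the BaCl2 libraries, so the groups overlapped.

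**Figure D1:**
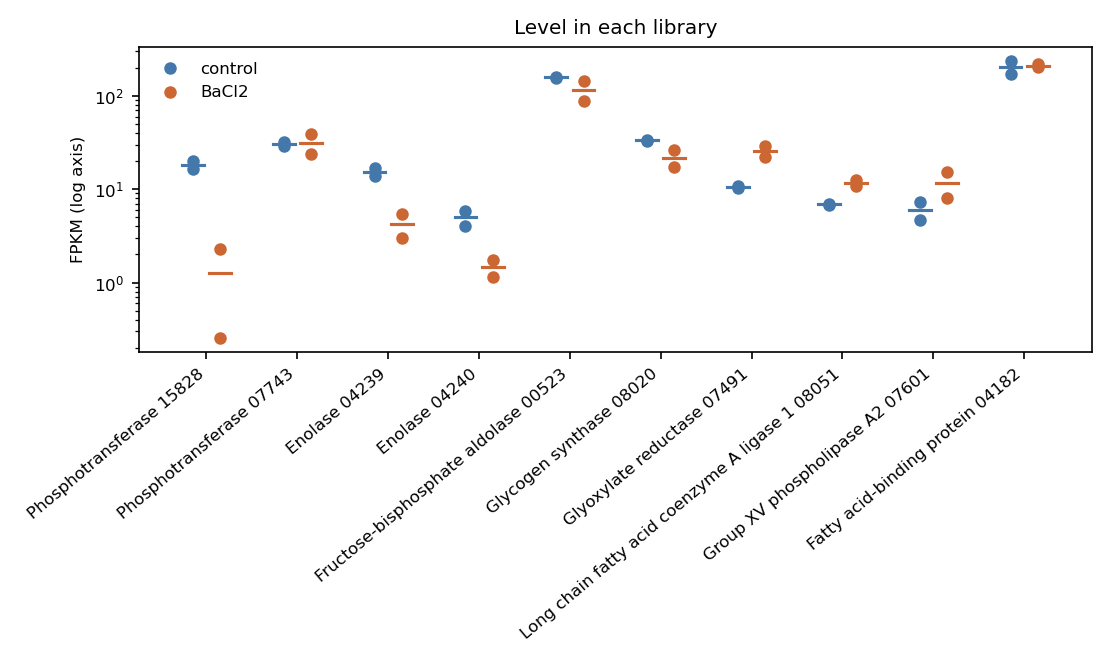
FPKM in each library, on a log axis, for 10 metabolic features, with 2 control libraries (blue) and 2 BaCl2 libraries (orange) per feature; the short bars are group means and the numbers are the last digits of the feature identifiers. The BaCl2 points of phosphotransferase TCONS_00015828 lie at 2.26 and 0.256 FPKM and its controls at 16.6 and 20.1 FPKM, while the fatty acid-binding protein overlaps.

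Hexokinases put a phosphate on glucose and so commit it to the cell. The 2 features named phosphotransferase (EC 2.7.1.-) carry deposited terms for hexokinase activity and glucose binding. One of them, TCONS_00015828, spans 742 nt at positions 10 to 751 of its contig, and its deposited gene name, slc25a-4, is spelled like a mitochondrial carrier, so that its 2 labels do not match. It had 16.6 and 20.1 FPKM in the control libraries and 2.26 and 0.256 FPKM in the BaCl2 libraries, from 201, 375, 21 and 4 fragments. Both BaCl2 libraries were far below both controls, and they also differed from each other. The level fell 14.6-fold, from 18.4 ± 2.50 to 1.26 ± 1.42 FPKM (SD, n = 2 each; limma log2 fold -3.25, SE 0.46, adjusted p = 0.0331). Without 1 library its log2 fold ran from -3.94 to -2.56. The call was lost with scaling to library totals (limma adjusted p = 0.159), with median-ratio scaling (0.117) and with a pseudocount of 0.1 (0.115). It was also lost with voom on library totals (0.0503) and with a lower fragment minimum (0.181 at 30 and 0.308 with none). In the authors' deposited table its q-value was 0.00428.

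The other hexokinase-type feature, TCONS_00007743, 1364 nt long at positions 129 to 1492, did not follow it. Its levels were 31.8 and 29.0 FPKM in the controls, against 23.8 and 39.4 FPKM under BaCl2. The BaCl2 libraries lay on both sides of the controls (log2 fold 0.01, SE 0.32, limma adjusted p = 0.986). Whether the pair differ in their response was not tested.

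None of the 6 glycolytic features with at least 100 fragments was called, and 5 of the 6 lay below 0. Their median log2 fold was -0.51, -0.30 on library totals and from -0.87 to -0.15 without 1 library, the value nearest 0 being that without BaCl2 replicate 1. Enolase, which makes phosphoenolpyruvate late in the chain, showed the largest differences. The enolase feature at positions 206 to 613 of its contig (TCONS_00004239) had 16.9 and 13.8 FPKM in the controls, against 5.36 and 3.01 FPKM under BaCl2. Its neighbour at positions 665 to 1221 (TCONS_00004240) had 5.91 and 4.08 FPKM in the controls, against 1.15 and 1.75 FPKM under BaCl2. In both pieces each BaCl2 library was below each control library, but neither passed (log2 fold -1.69, SE 0.31, limma adjusted p = 0.0692; and -1.29, SE 0.30, adjusted p = 0.114). The remaining enolase feature, TCONS_00004238, lies on another contig and is 61 nt long, with 12 and 3 fragments in the control and 3 and 4 in the BaCl2 libraries, which overlapped in FPKM. Summed over the contig of the 2 longer pieces, a step added after seeing the data, enolase averaged 8.79 ± 1.62 FPKM in the controls and 2.45 ± 0.34 FPKM under BaCl2 (SD, n = 2 each), 3.58-fold lower, and just missed the threshold (log2 fold -1.50, SE 0.27, limma adjusted p = 0.0563). The first piece passed with a pseudocount of 5 (limma adjusted p = 0.0425), but not on library totals (0.178) or with median-ratio scaling (0.151). Without 1 library its log2 fold ran from -2.02 to -1.35.

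Fructose-bisphosphate aldolase, which splits the sugar into a pair of smaller ones, had the highest level of the glycolytic features with at least 100 fragments. Its main feature, TCONS_00000523, had 160 and 155 FPKM in the controls, against 88.7 and 143 FPKM under BaCl2. Both BaCl2 libraries were lower, the second only by little (log2 fold -0.48, SE 0.33, limma adjusted p = 0.455). A further aldolase feature, TCONS_00007117, had 49.6 and 38.7 FPKM in the controls, against 24.8 and 49.2 FPKM under BaCl2, so its groups overlapped.

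Pyruvate kinase makes pyruvate at the end of glycolysis and had 2 fitted features. TCONS_00001393 had 76.1 and 64.5 FPKM in the controls, against 62.2 and 102 FPKM under BaCl2 (log2 fold 0.18, SE 0.34, limma adjusted p = 0.789). TCONS_00006008 had 45.9 and 52.0 FPKM in the controls, against 25.4 and 43.3 FPKM under BaCl2 (log2 fold -0.54, SE 0.33, limma adjusted p = 0.404). The first overlapped, although on library totals both BaCl2 libraries were above both controls. The second was lower in both BaCl2 libraries, although not once the libraries were scaled to equal totals. Whether they differ from each other was not tested. In both, as in both aldolases, BaCl2 replicate 1 was the lower of the BaCl2 libraries. That order held in 27 of the 38 metabolic features (71.1%) and in 62.2% of all features. BaCl2 replicate 1 was also the shallowest library, and the part of depth in this was not tested.

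Glycogen enzymes were lower in BaCl2 heads in all 4 features with at least 100 fragments, with a median log2 fold of -0.52, yet none was called. Glycogen synthase TCONS_00008020 had 33.0 and 34.0 FPKM in the controls, against 17.1 and 26.0 FPKM under BaCl2. A neighbouring piece, TCONS_00008019, had 6.94 and 8.90 FPKM in the controls, against 5.98 and 5.73 FPKM under BaCl2. Both pieces kept the groups apart (log2 fold -0.65, SE 0.30, limma adjusted p = 0.299 for the first, and -0.37, SE 0.26, adjusted p = 0.451 for the second). Debranching enzyme TCONS_00013674 had 4.46 and 4.65 FPKM in the controls, against 2.38 and 3.19 FPKM under BaCl2 (log2 fold -0.56, SE 0.27, limma adjusted p = 0.306). Its neighbour TCONS_00013673 had 6.71 and 7.17 FPKM in the controls, against 3.90 and 5.64 FPKM under BaCl2 (log2 fold -0.48, SE 0.27, limma adjusted p = 0.373). The 4 features stand for 2 contigs only. On library totals 3 of the 4 were lower without overlap, and the CPM of all 5 glycogen features were 213 and 249 in control against 160 and 187 in BaCl2 libraries, a ratio of 0.753. The log2 fold of glycogen synthase feature TCONS_00008020 was -0.93 without BaCl2 replicate 2 and -0.36 without BaCl2 replicate 1.

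**Figure D2:**
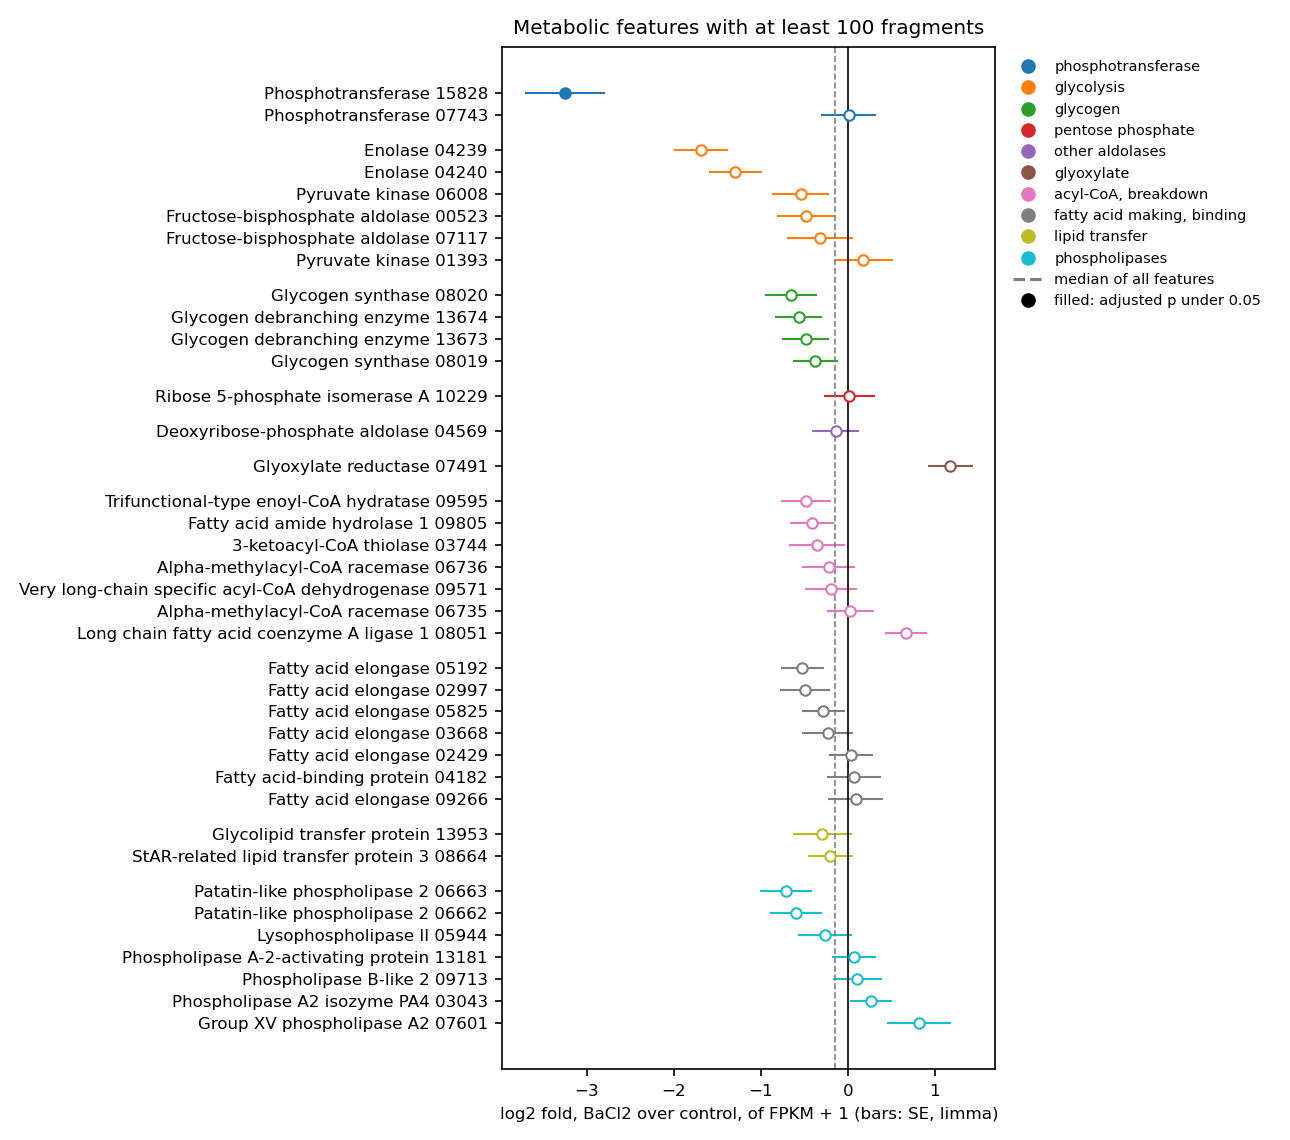
Log2 fold of FPKM + 1, BaCl2 over control, for the 38 metabolic features with at least 100 fragments, coloured by role; bars are the standard errors of limma, a filled point has an adjusted p under 0.05 and the dashed line is the median of all features. Phosphotransferase TCONS_00015828 is the only filled point, the 4 glycogen features lie between -0.65 and -0.37, and glyoxylate reductase stands highest at 1.18.

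Glyoxylate reductase, which reduces glyoxylate and hydroxypyruvate and so keeps glyoxylate from turning into oxalate in mammals, had the largest positive fold of the 38. TCONS_00007491, 984 nt long at positions 106 to 1089 of its contig, had 10.4 and 10.8 FPKM in the controls, against 22.2 and 28.9 FPKM under BaCl2. The BaCl2 libraries were both more than double the controls, and the controls lay close together. The mean was 2.41-fold higher, 25.5 ± 4.74 against 10.6 ± 0.221 FPKM (SD, n = 2 each), and missed the threshold (log2 fold 1.18, SE 0.26, limma adjusted p = 0.107). It passed when only features with at least 500 fragments were fitted (adjusted p = 0.0319) and in limma-voom on recovered fragments (0.0275 on library totals and 0.034 on the deposited scale). With limma on FPKM it did not pass on library totals (adjusted p = 0.126) or with median-ratio scaling (0.105). It also missed with a pseudocount of 0.1 (0.14) or 5 (0.0877), and with a fragment minimum of 30 (0.254) or none (0.379). Without 1 library its log2 fold ran from 1.00 to 1.36. The authors' deposited table gave it a q-value of 0.0103.

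Of the pentose phosphate steps, which turn glucose into ribose, the rule took ribose 5-phosphate isomerase A, in 3 features of 1 contig. The long feature, TCONS_00010229, covering positions 2 to 848, had 3.04 and 3.96 FPKM in the controls, against 4.24 and 2.94 FPKM under BaCl2. Those groups overlapped (log2 fold 0.02, SE 0.29, limma adjusted p = 0.973). A piece of 181 nt farther along, TCONS_00010230 at positions 968 to 1148, had no fragment in either control library and 13 and 11 fragments in the BaCl2 libraries. Its level was at least 5.14-fold higher in BaCl2 heads, taking 3 fragments per control library as the floor. It was not called (limma adjusted p = 0.126 with no fragment minimum), although the authors' deposited table gave it a q-value of 0.00428. The isomerase contig as a whole had 3.94 and 3.55 FPKM in the controls, against 5.28 and 3.73 FPKM under BaCl2. The last piece, TCONS_00010231 at positions 2223 to 2512, had 11.0 and 1.56 FPKM in the controls, against 5.62 and 5.93 FPKM under BaCl2, and overlapped. The groups of the summed contig overlapped (log2 fold 0.20, SE 0.28, limma adjusted p = 0.70). Deoxyribose-phosphate aldolase, which cleaves the sugar of DNA building blocks, had 26.4 and 21.1 FPKM in the controls, against 19.3 and 23.6 FPKM under BaCl2 and overlapped.

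None of the fatty acid enzymes was called in the fit over features with at least 100 fragments. The 7 fitted features of acyl-CoA metabolism and fatty acid breakdown had a median log2 fold of -0.22, and 5 of the 7 lay below 0. Long chain fatty acid coenzyme A ligase 1 activates fatty acids. Its feature TCONS_00008051 had 6.94 and 6.77 FPKM in the controls, against 12.4 and 10.7 FPKM under BaCl2, 1.69-fold higher. Both BaCl2 libraries were above both controls, but the difference did not pass (log2 fold 0.67, SE 0.24, limma adjusted p = 0.224).

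The fitted enzymes of the oxidation cycle itself lay on the other side of 0, as did the median of all features (-0.15), and none was called. The enoyl-CoA hydratase and long-chain 3-hydroxyacyl-CoA dehydrogenase, which carries the middle steps of the cycle, had 59.5 and 48.6 FPKM in the controls, against 32.8 and 44.4 FPKM under BaCl2 (log2 fold -0.48, SE 0.29, limma adjusted p = 0.401). The 3-ketoacyl-CoA thiolase, which splits off acetyl-CoA, had 105 and 86.3 FPKM in the controls, against 61.2 and 90.0 FPKM under BaCl2 (log2 fold -0.35, SE 0.32, limma adjusted p = 0.559). The hydratase groups were apart and those of the thiolase overlapped, and on library totals their log2 folds were -0.27 and -0.14. Fatty acid amide hydrolase 1, which breaks down signalling lipids such as anandamide in mammals, had 31.2 and 27.4 FPKM in the controls, against 20.9 and 22.7 FPKM under BaCl2 and did not overlap (log2 fold -0.41, SE 0.25, limma adjusted p = 0.41). Alpha-methylacyl-CoA racemase, which prepares branched fatty acids for oxidation, had 110 and 119 FPKM in the controls, against 84.0 and 114 FPKM under BaCl2 in its most abundant feature. Very long-chain acyl-CoA dehydrogenase, the entry enzyme of the cycle for long chains, had 1.64 and 1.25 FPKM in the controls, against 0.928 and 1.35 FPKM under BaCl2. The groups of both the racemase and the dehydrogenase overlapped, and the log2 fold of the dehydrogenase was -0.19. A second piece of the dehydrogenase, with 45 fragments, overlapped too.

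Elongases lengthen fatty acids at the endoplasmic reticulum, and fatty acid-binding proteins carry them through the cytosol. The fatty acid-binding protein had the highest level of the 38 features, with 237 and 171 FPKM in the controls, against 203 and 219 FPKM under BaCl2. The BaCl2 values lay between the controls (log2 fold 0.07, SE 0.31, limma adjusted p = 0.913), and above both of them on library totals. The 6 fitted elongase features had log2 folds from -0.52 to 0.09. The lowest, TCONS_00005192, had 9.15 and 9.08 FPKM in the controls, against 6.63 and 5.50 FPKM under BaCl2 (SE 0.25, limma adjusted p = 0.306). TCONS_00002997 had 68.7 and 53.6 FPKM in the controls, against 38.5 and 47.7 FPKM under BaCl2 (log2 fold -0.49, SE 0.29, limma adjusted p = 0.386). In both the groups were apart. TCONS_00005825 had 20.5 and 23.8 FPKM in the controls, against 17.8 and 18.3 FPKM under BaCl2 (log2 fold -0.28, SE 0.25, limma adjusted p = 0.557), and was apart too, though not on library totals. The most abundant elongase, TCONS_00003668, had 104 and 81.6 FPKM in the controls, against 73.9 and 83.7 FPKM under BaCl2 and overlapped. Fatty acid desaturase 2, which puts double bonds into the chain, was covered by 75 and 62 fragments in its 2 features, whose groups overlapped.

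Phospholipases split membrane lipids. The median log2 fold of their 7 fitted features was 0.07, and -0.14 without control replicate 2. Group XV phospholipase A2, a lysosomal enzyme in mammals, had 4.70 and 7.26 FPKM in the controls, against 8.03 and 15.3 FPKM under BaCl2 (TCONS_00007601). Both BaCl2 libraries were above the controls, the first one narrowly (log2 fold 0.82, SE 0.37, limma adjusted p = 0.29). A further feature of the same name, with 80 fragments, overlapped. Phospholipase A2 isozyme PA4, named after a secreted venom enzyme of a lizard, had 19.5 and 18.8 FPKM in the controls, against 23.3 FPKM in both BaCl2 libraries (log2 fold 0.27, SE 0.24, limma adjusted p = 0.562).

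Patatin-like phospholipase 2, the lipase that starts the breakdown of stored triglyceride in mammals, lay below 0. TCONS_00006663 had 12.3 and 13.9 FPKM in the controls, against 9.63 and 5.98 FPKM under BaCl2 (log2 fold -0.71, SE 0.30, limma adjusted p = 0.265). TCONS_00006662, on the same contig, had 32.7 and 33.8 FPKM in the controls, against 17.3 and 27.3 FPKM under BaCl2 (log2 fold -0.59, SE 0.30, limma adjusted p = 0.338). Both kept the groups apart, the first not on library totals, while the third piece, with 74 fragments, overlapped. Summed over their contig the lipase was 1.48-fold lower in BaCl2 heads (log2 fold -0.55, SE 0.27, limma adjusted p = 0.303). Lysophospholipase II, which removes the last fatty acid from a phospholipid, was the second most abundant feature of the 38, with 196 and 177 FPKM in the controls, against 131 and 186 FPKM under BaCl2, and overlapped. The phospholipase B-like 2 feature also overlapped, with a log2 fold of 0.11, but was higher in both BaCl2 libraries on library totals.

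The phospholipase A2-activating protein, whose mammalian counterpart binds ubiquitin, gave 3 features on 2 contigs. The longest, TCONS_00013181, had 4.89 and 5.04 FPKM in the controls, against 5.0 and 5.53 FPKM under BaCl2 (log2 fold 0.07). TCONS_00013180, an upstream piece of the same contig, had 1.31 and 2.13 FPKM in the controls, against 5.54 and 5.57 FPKM under BaCl2, and TCONS_00013182, on another contig, had 0.259 and 0.561 FPKM in the controls, against 1.57 and 1.80 FPKM under BaCl2. TCONS_00013180 and TCONS_00013182 had 49 and 54 fragments in all and were higher in both BaCl2 libraries. Neither was called (limma adjusted p = 0.393 and 0.491 with no fragment minimum). The longest feature overlapped, but was higher in both BaCl2 libraries on library totals.

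The other 23 metabolic features had 11 to 80 fragments each, with a median of 38, and 12 of the 23 were shorter than 200 nt. At that length a few fragments make a large FPKM, since 1 fragment in a feature of 100 nt counts for 11.1 to 22.3 FPKM. In a limma fit with no fragment minimum, 15683 features entered, among them all 61, and 1 of the 61 was called, where 0.128% of all features were. An unadjusted p under 0.05 was found for 10 of the 61 and for 11.3% of all features. Among the 23, BaCl2 heads were the lower group without overlap in 6, where 18.1% of all features under 100 fragments were, and the higher group in 5, where 24.0% were.

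The one called was StAR lipid transfer protein 7 (TCONS_00015822), which carries phosphatidylcholine between membranes in mammals. This feature of 146 nt had 15 and 26 fragments in the control libraries and none in either BaCl2 library, or 66.6 and 75.1 FPKM against 0. Its level fell at least 5.12-fold, with 3 fragments per BaCl2 library as the floor (limma adjusted p = 0.0398 with no fragment minimum, and 0.0123 with a minimum of 30). The related StAR-related lipid transfer protein 3, a cholesterol carrier, had 7.72 and 9.34 FPKM in the controls, against 7.94 and 6.63 FPKM under BaCl2 and overlapped (TCONS_00008664; log2 fold -0.20, SE 0.26, limma adjusted p = 0.685). A second piece of its contig, TCONS_00008663 with 60 fragments, had 7.25 and 10.6 FPKM in the controls, against 6.30 and 6.07 FPKM under BaCl2, and its groups were apart, though not on library totals (limma adjusted p = 0.597 with no fragment minimum). Glycolipid transfer protein overlapped as well, with 5.25 and 2.51 FPKM in the controls, against 2.94 and 2.74 FPKM under BaCl2.

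**Figure D3:**
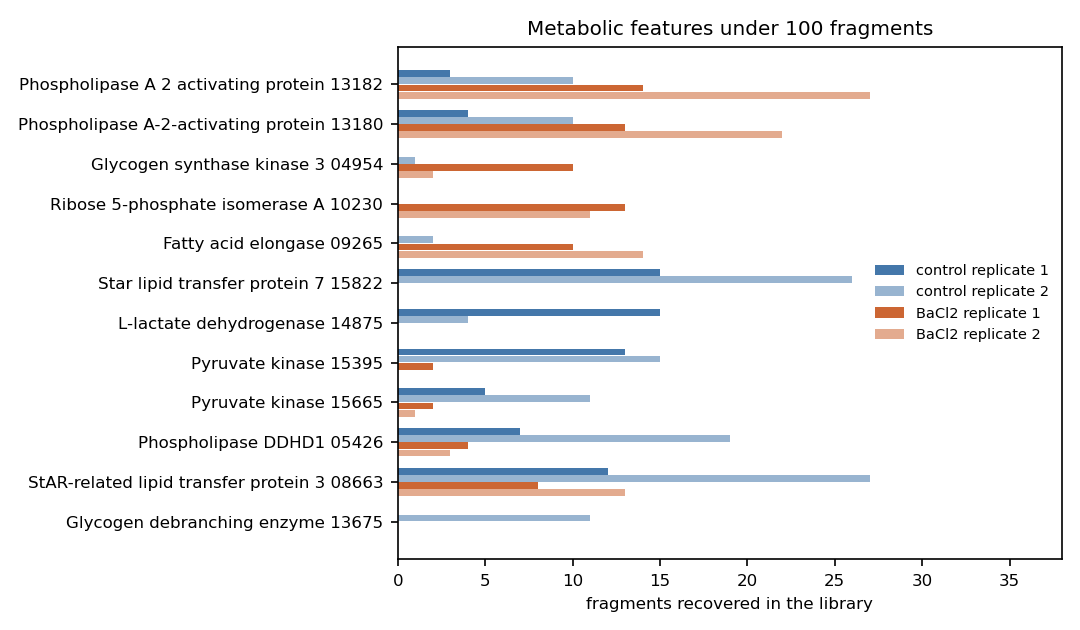
Recovered fragments in each library for the 12 metabolic features with fewer than 100 fragments whose groups did not overlap or that were at 0 in both libraries of a group; bars are single libraries, dark for replicate 1 and pale for replicate 2. StAR lipid transfer protein 7, lactate dehydrogenase TCONS_00014875 and debranching enzyme TCONS_00013675 have fragments in the control libraries only, and ribose 5-phosphate isomerase TCONS_00010230 in the BaCl2 libraries only.

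Lactate dehydrogenase, which turns pyruvate into lactate, was split into 2 short features of 1 contig. TCONS_00014875, 171 nt long, had 15 and 4 fragments in the control libraries and none in the BaCl2 libraries. TCONS_00014876, 65 nt long, had none and 7 in the control libraries and 12 and 5 in the BaCl2 libraries, and its groups overlapped. The first was at least 2.82-fold lower in BaCl2 heads by the same floor and was not called (limma adjusted p = 0.366), although the authors' deposited table gave it a q-value of 0.00737. Summed over the contig, lactate dehydrogenase had 37.2 and 17.7 FPKM in the controls, against 38.8 and 9.60 FPKM under BaCl2, which overlapped.

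A pair of pyruvate kinase pieces of low coverage differed in the same direction. TCONS_00015395 had 13 and 15 fragments in the control libraries and 2 and 0 in the BaCl2 libraries. TCONS_00015665 had 5 and 11 in the control and 2 and 1 in the BaCl2 libraries. Neither passed (limma adjusted p = 0.433 and 0.442 with no fragment minimum), and they lie on contigs other than those of the 2 abundant pyruvate kinase features. Glyceraldehyde-3-phosphate dehydrogenase, an abundant enzyme in most cells, was present under this name only as a feature with 14, 13, 0 and 11 fragments, whose groups overlapped. Glycogen synthase kinase 3 had 0 and 1 fragments in control and 10 and 2 in BaCl2 libraries. A piece of an elongase, TCONS_00009265, had 0 and 2 in control and 10 and 14 in BaCl2 libraries. The long feature of that contig overlapped, but was higher in both BaCl2 libraries on library totals. Debranching enzyme TCONS_00013675 had its 11 fragments all in control replicate 2. Phospholipase DDHD1, which cleaves phosphatidic acid in mammals, had 7 and 19 fragments in control and 4 and 3 in BaCl2 libraries, with the groups apart, and was not called (limma adjusted p = 0.479).

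A q-value under 0.05 in the authors' deposited table was given to 5 of the 61, and to 3.43% of the 15850 features. These were the phosphotransferase, glyoxylate reductase, the first lactate dehydrogenase piece, the middle piece of ribose 5-phosphate isomerase A and StAR lipid transfer protein 7. Only the first 2 had at least 100 fragments. Pieces of 1 contig were read together for 34 contigs with at least 100 fragments, and limma called 1 of them, that of the phosphotransferase, against 1.67% of all contigs.

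Genes of the same pathways whose names the rule did not take were matched by name patterns. Glucose enters cells through Slc2a transporters, and Slc2a-1 (TCONS_00003196) had 3.29 and 6.41 FPKM in the controls, against 36.2 and 48.0 FPKM under BaCl2. It rose (limma log2 fold 2.92, SE 0.34, adjusted p = 0.0179), and was not called on library totals (adjusted p = 0.075) or with a lower fragment minimum (0.134 at 30 and 0.23 with none). A short second piece of it had 0 and 2 fragments in the controls and 1 and 16 under BaCl2. The 2 fitted Slc2a-7 features had log2 folds of 0.24 and 0.04. Slc2a-2 and Slc2a-5, with 14 and 48 fragments in all, were not fitted and overlapped (BaCl2 over control ratios 0.88 and 1.52). Of 8 other fitted features of glycolysis and gluconeogenesis, 7 lay below 0, or 4 on library totals, and none was called (median log2 fold -0.22, and -0.01 on library totals). Phosphoglycerate mutase, the step before enolase, had 407 and 355 FPKM in the controls, against 154 and 212 FPKM under BaCl2 (log2 fold -1.07, SE 0.32, limma adjusted p = 0.164), with the groups apart. Phosphoenolpyruvate carboxykinase, which runs the path backwards towards glucose, had 145 and 133 FPKM in the controls, against 101 and 154 FPKM under BaCl2 and overlapped.

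No call was made either among 17 features of other sugar metabolism, 13 of pyruvate and acetyl-CoA metabolism or 28 of other fatty acid and sterol metabolism. Their median log2 folds were -0.12, -0.32 and -0.29, and 10, 10 and 21 of them lay below 0. On library totals the medians were 0.07, -0.11 and -0.10, so that the sugar list changed sign, and 7, 9 and 17 lay below 0. The most abundant were aldose reductase (log2 fold 0.37), which reduces glucose to sorbitol, cytosolic malate dehydrogenase (-0.36) and an O-acyltransferase (-0.79), none past the threshold.

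**Figure D4:**
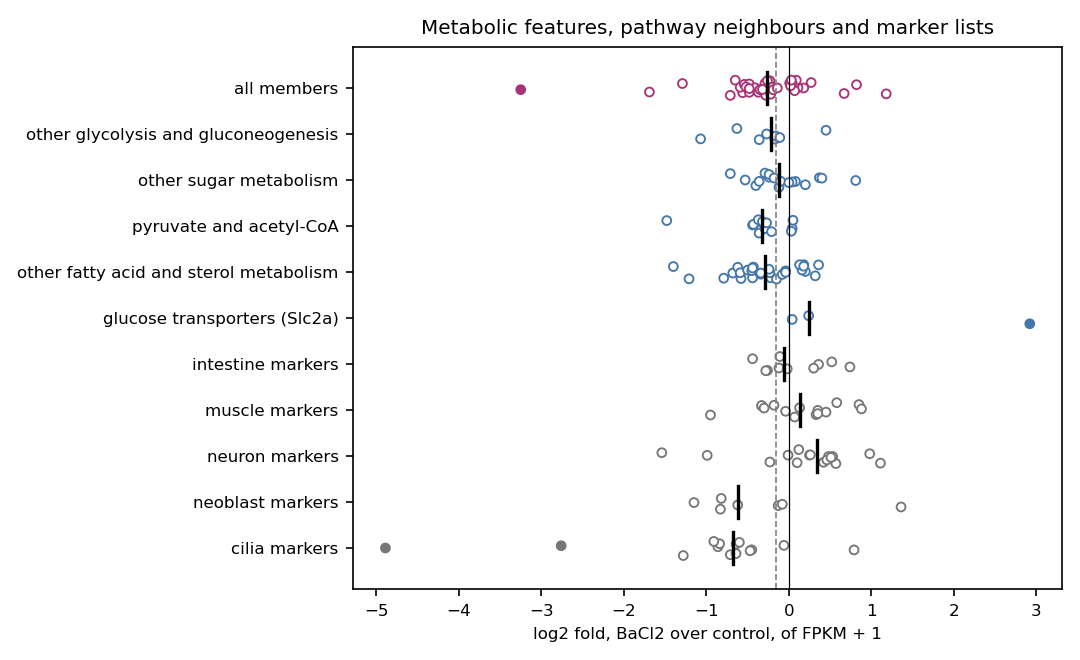
Log2 fold of FPKM + 1, BaCl2 over control, for the 38 metabolic features (top), for genes of neighbouring pathways (blue) and for cell type markers (grey); each point is a feature with at least 100 fragments, filled where limma gave an adjusted p under 0.05, black bars are list medians and the dashed line is the median of all features. The metabolic features centre on -0.27, the cilia markers on -0.68 and the neuron markers on 0.34.

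Summed CPM of markers of the cell types of a head differed between the groups. Cilia markers had 2543 and 3256 CPM in control and 1311 and 2332 in BaCl2 libraries. Of 14 fitted cilia markers 13 lay below 0, and 2 fell, tektin-3 (limma log2 fold -4.89, adjusted p = 0.0206) and radial spoke head protein 3 (-2.76, adjusted p = 0.0444), both structural proteins of the ciliary axoneme. On library totals 12 of the 14 lay below 0. None of 15 muscle, 16 neuron, 10 intestine and 7 neoblast markers was called, neoblasts being the planarian stem cells. In that order 6, 4, 6 and 6 of them lay below 0, and 4, 3, 3 and 4 on library totals. Muscle markers summed to 10016 and 9356 in control and 15679 and 16553 CPM in BaCl2 libraries, neuron markers to 290 and 381 against 557 and 530, and intestine markers to 1995 and 2050 against 2551 and 2633. Neoblast markers summed to 1605 and 1635 against 1413 and 1459. The groups did not overlap in any of these 5 sums, which are relative to library totals. Taken singly on the deposited scale, the groups overlapped in 8 of 10 intestine, 7 of 15 muscle and 6 of 16 neuron markers. They overlapped in 2 of 7 neoblast and 5 of 14 cilia markers, and in 3561 of all 7982 features. The most abundant markers weigh most in a sum, and each list held markers that went the other way. No marker was at 0 in all libraries, and the part of cell composition in the metabolic values was not tested.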

How the data were processed

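The authors deposited 3 tables of assembled features whose expression values are FPKM, per the file headers, with p-value and q-value columns of their own comparison, per the file headers. Bowtie, TopHat2 2.0.13, Cufflinks 2.2.1 and Cuffdiff are named in the submitters' processing notes. The genome build was not given in the sources used here. The deposited log2 fold column was not used.

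The 2 replicate tables were scaled separately, and weights of 0.6399, 0.357, 0.6449 and 0.3577 returned the pooled value as a weighted sum, within 0.1% in 15202 of 15204 features. Libraries were rescaled with them so that a group's mean is its pooled value. A further 752 library values, absent from a replicate table, were derived by subtraction or as 0, and 61 of them were above 0. Whole fragments were recovered by assuming fragment lengths with mean 200 nt and SD 80 nt, between 28 and 440 nt. Within a tolerance of 0.1 fragments, 99.85% to 99.95% of the values under 50 fragments came out whole. Floors are 3 fragments per library and cover counting error only.

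The test was limma 3.58.1 in R 4.3.3, two-sided, with a mean trend, on log2(FPKM + 1) of features with at least 100 fragments and a mean of at least 1 FPKM. It had no block and 2 residual degrees of freedom, and Benjamini-Hochberg adjustment ran over all features. Folds understate the change of low features on this scale. The code was tested on simulated data. Limma-voom on the recovered fragments was an alternative and called 105 features on library totals and 195 on the deposited scale. Nothing says that same-numbered libraries share a day or culture, and p-values measure only the spread between these 4 libraries. Across features the log2 values correlated at 0.977 between controls, 0.934 between BaCl2 libraries and 0.892 to 0.903 between groups.

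The members, lists, tests and alternatives were chosen with earlier results of these data known. Named with all library values were called features, the 3 largest folds and 3 highest levels of each role, and further features chosen after their values were seen, mainly those under 100 fragments. In the list of other sugar metabolism, a tubulin polyglutamylase entered through its spelling and was not fitted. No sequences are shown.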

Additional observations from a re-analysis of the deposited data

How the results depend on the processing

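Over all features limma called 113, and 53 with a pseudocount of 0.1, 177 with a pseudocount of 5, 20 with no fragment minimum, 33 with at least 30 fragments, 38 with median-ratio scaling, 25 with library totals, 195 with voom on the deposited scale and 225 to 957 without 1 library. Of the metabolic features 0 were called with a pseudocount of 0.1, median-ratio scaling or library totals. In these fits 5, 6 and 6 of the 38 had an unadjusted p under 0.05, as had 1459, 1490 and 1437 of all 7982 features. With a pseudocount of 5 or voom on the deposited scale 2 of the 38 were called. With at least 500 fragments 2 of the 28 fitted were called, as were 139 of all 4124 features (3.37%). The count called higher was 0 in the main fit. It was 1 with at least 500 fragments (0.776% of all features), voom on library totals (0.664%), voom on the deposited scale (0.526%) and the replicate block (5.06%). With the replicate block, which treats same-numbered libraries as pairs, 948 features (11.9%) and 4 of the 38 were called. Over 7982 features, deviations of same-numbered libraries from their group means correlated at 0.145. With 2 libraries a group, pair 2 only mirrors pair 1, so this does not show that they pair.

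The median log2 fold of the 38 was -0.11 with median-ratio scaling, -0.07 with library totals, -0.09 with voom on totals and -0.34 to -0.14 without 1 library. That of the acyl-CoA group was -0.35 with at least 500 fragments, -0.10, -0.07 and -0.05 under the same 3 scalings and -0.44 to -0.05 without 1 library. That of glycogen was -0.30 with a pseudocount of 5, -0.35 with library totals and -0.71 to -0.38 without 1 library. Without 1 library that of glycolysis ran from -0.87 to -0.15 and that of phospholipases from -0.14 to 0.13. The median of fatty acid synthesis, elongation and binding, -0.23, was 0.02 with no fragment minimum and 0.01 with at least 30.

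The sign changed in 12 features, none called in the main comparison. Racemase TCONS_00006736 was at 0.00 with voom on totals. Deoxyribose-phosphate aldolase was at 0.02, 0.07 and 0.08 with median-ratio scaling, library totals and voom on totals. With voom on the deposited scale phosphotransferase TCONS_00007743 was at -0.01 and isomerase TCONS_00010229 at -0.06. Without 1 library the log2 fold ranged from -0.71 to 0.13 for glycolipid transfer protein, -0.79 to 0.16 for aldolase TCONS_00007117, -0.17 to 0.53 for pyruvate kinase TCONS_00001393, -0.30 to 0.01 for deoxyribose-phosphate aldolase, -0.14 to 0.36 for phospholipase B-like 2, -0.19 to 0.37 and -0.05 to 0.12 for elongases TCONS_00009266 and TCONS_00002429, -0.34 to 0.37 for TCONS_00007743, -0.16 to 0.30 for fatty acid-binding protein, -0.18 to 0.23 for TCONS_00010229 and -0.20 to 0.26 for racemase TCONS_00006735. The cause was not tested. With 2 libraries a group and 3395482 fragments in the shallowest, depth limits the features of few fragments most. Leaving out a library left a lone one assumed to vary like the other group.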
